A study of Rattus norvegicus with 9 samples.

Results

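The MBD3 peaks described here lie near the ends of rat autosomes, within the first 3 Mb or the last 3 Mb of chromosomes 1 to 20. They were chosen by position alone, from the summit of each entry in the 7 deposited peak lists. The far end of a chromosome was set at the largest peak end over all lists. Of 246164 entries, 243396 lay on autosomes and 10123 were members, 4834 near chromosome starts and 5289 near far ends. Members made up 4.16% of the autosomal entries, and the 40 ends made up 4.37% of the autosome length of 2.75 Gb.

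MBD3 is a subunit of NuRD, a complex that joins nucleosome remodelling to histone deacetylation. Its methyl-CpG-binding domain is known to bind methylated DNA poorly, in contrast to that of its relative MBD2. Chromosome ends carry telomeric repeats and, next to them, segments that are duplicated between chromosomes, where short reads are hard to place. On telocentric chromosomes of the rat the start of the sequence lies beside the centromere, whereas on metacentric chromosomes both ends are telomeric arms.

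Chromatin came from tissue of the amygdala together with piriform, entorhinal and perirhinal cortex of male Sprague-Dawley rats, so the data describe a mixture of cell types. All 7 rats carried electrodes, with the stimulating one in the left lateral amygdala. In 4 of them 400 µA pulses for 20 min evoked status epilepticus, which was ended 1.5 h later with diazepam at 20 mg/kg, while 3 sham-operated rats were not stimulated and no diazepam is recorded for them. Tissue was taken on day 14, and the study compared MBD3 binding between these groups.

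Filtered tags numbered 2436208 to 3668143 in sham and 4812579 to 17960510 in stimulated libraries, and each group had its own input library. Depth, input and diazepam therefore cannot be told apart from stimulation. Each list stands for 1 rat. The lists held 31915, 13990 and 12085 autosomal entries in sham rats 1 to 3. Those of stimulated rats 1 to 4 held 9384, 108750, 2687 and 64585. Counts pooled over lists, and matches between lists, therefore weigh most on stimulated rats 2 and 4. Stimulated rat 1 stood apart from the other lists, as 4.25% of its interior peaks were met by a peak of another list, against 12.7% to 71.1% in the other 6. Stimulated rat 3 had 78.3% duplicate tags and 126 members, so its values for single ends rest on few entries. No sequence is shown, since no source used here names the build of the lists. For the same reason no peak was assigned to a gene.

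Over 3 Mb, the ends held MBD3 peaks about as densely as the interior of their chromosomes. Near chromosome starts, sham rats 1 to 3 had 725, 378 and 249 entries, which were 1.02, 1.24 and 0.925 times the number expected from the interior density of the same chromosomes. Stimulated rats 1 to 4 had 227, 2034, 69 and 1152 entries there, or 1.01, 0.825, 1.15 and 0.776 times the expected number. Both groups thus had lists above and below the interior.

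Near far ends, sham rats 1 to 3 had 682, 294 and 243 entries, or 0.960, 0.961 and 0.902 times the expected number. Stimulated rats 1 to 4 had 269, 2335, 57 and 1409 entries, or 1.20, 0.947, 0.951 and 0.949 times the expected number. Stimulated rat 1 was the 1 list above its interior, and the other 6 lay slightly below.

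The mean log2 ratio to the interior was −0.03 ± 0.24 at starts (SD, n = 7; exact sign-flip permutation test, two-sided p = 0.750, adjusted p = 0.844). At far ends it was −0.03 ± 0.13 (SD, n = 7; exact sign-flip permutation test, two-sided p = 0.516, adjusted p = 0.844). The p-values were adjusted over 9 tests of this kind by the Benjamini-Hochberg method. Without stimulated rat 1 the far-end value was −0.08 ± 0.03 (SD, n = 6; exact sign-flip permutation test, two-sided p = 0.0312). Leaving out the only list above its interior fixed this p at the smallest value that 6 rats can give, so no conclusion is drawn from it. The difference between far ends and starts within a list was 0.00 ± 0.26 (log2; SD, n = 7; exact sign-flip permutation test, two-sided p = 0.984, adjusted p = 0.984).

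Stimulated and sham rats did not differ in these densities beyond their spread. At starts the mean log2 ratio was 0.07 ± 0.21 over the 3 sham lists and −0.11 ± 0.26 over the 4 stimulated lists (SD), a difference of −0.18 (exact permutation test of the group labels, two-sided p = 0.400, adjusted p = 0.844). At far ends it was −0.09 ± 0.05 in sham and 0.01 ± 0.17 in stimulated lists (SD), a difference of 0.10 (exact permutation test of the group labels, two-sided p = 0.571, adjusted p = 0.844), which was 0.0127 without stimulated rat 1. With 3 and 4 rats the smallest p these label tests can give is 0.0571, so they could not reach 0.05.

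The peaks of lowest p were placed differently from the whole lists. When every list was reduced to its 2687 entries of lowest p, the length of the whole list of stimulated rat 3, the starts were denser than the interior in all 7 lists. The ratios were 1.56, 1.77 and 1.19 in sham rats 1 to 3 and 1.50, 1.48, 1.15 and 1.24 in stimulated rats 1 to 4. Their mean log2 ratio was 0.48 ± 0.23 (SD, n = 7; exact sign-flip permutation test, two-sided p = 0.0156, the smallest value it can give), opposite in sign to that of the whole lists. Other cuts on strength gave smaller values at starts. The mean log2 ratio was −0.06 ± 0.26 at a fold of at least 4 (SD, n = 7). At a −log10 q of at least 3 it was 0.15 ± 0.40 (SD, n = 7). Few starts carried the excess of the equal lists. Chromosome 2 gave 18.8% of the equal-list entries at starts, chromosome 7 gave 14.8% and chromosome 12 gave 9.34%, and chromosome 19 gave 34 of the 97 in stimulated rat 1. Without chromosomes 2, 7 and 12, picked after their values were seen, the ratios were 0.761, 0.971 and 0.728 in sham rats and 1.36, 0.791, 1.12 and 0.834 in stimulated rats 1 to 4, with a mean log2 ratio of −0.13 ± 0.33 (SD, n = 7).

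At far ends the equal lists gave 0.753, 0.827 and 0.828 in sham rats and 1.13, 0.776, 0.951 and 0.685 in stimulated rats 1 to 4. Here the mean log2 ratio was −0.25 ± 0.24 (SD, n = 7; exact sign-flip permutation test, two-sided p = 0.0469), and stimulated rat 1 was again the 1 list above its interior. Far ends were sparser than starts in all 7 equal lists, with a mean difference of −0.74 ± 0.33 on the log2 scale (SD, n = 7; exact sign-flip permutation test, two-sided p = 0.0156), and −0.11 ± 0.20 without these 3 chromosomes. Leaving out the equal-list entries over high local background, defined further on, gave 0.34 ± 0.28 at starts and −0.27 ± 0.22 at far ends (log2; SD, n = 7). In these equal lists 6 of 40 ends were denser than the interior in at least 6 lists, as were 7.04% of all windows of 3 Mb on the autosomes.

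**Figure D1:**
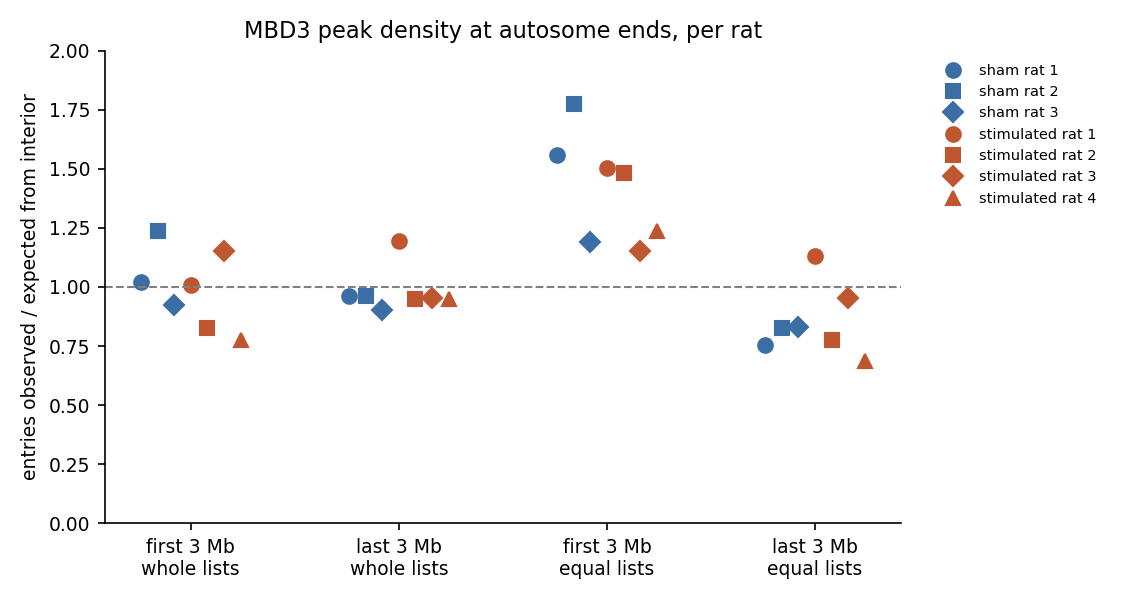
Ratio of observed entries to the number expected from the interior of the same chromosomes (y axis, linear, dashed line at 1), for the first and last 3 Mb, with 1 point per rat (blue sham, orange stimulated). Whole lists scatter around 1 at starts, from 0.776 to 1.24, whereas all 7 equal lists of 2687 entries lie above 1 at starts, from 1.15 to 1.77.

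Density near the far end depended on the distance from it. In the last 1 Mb every list was sparser than the interior, with ratios of 0.714, 0.932 and 0.794 in sham rats 1 to 3 and 0.721, 0.851, 0.845 and 0.749 in stimulated rats 1 to 4. Its mean log2 ratio was −0.33 ± 0.14 (SD, n = 7; exact sign-flip permutation test, two-sided p = 0.0156). Between 0.25 and 0.5 Mb from the far end the ratio was lowest, with a median over lists of 0.642 and a highest value of 0.803. From 1 to 2 Mb it was above 1 in 7 of 7 lists, at 1.00 to 1.27 with a median of 1.09. Stimulated rats 2 and 4 hardly exceeded the interior there, at 1.003 and 1.02. Outside the 3 Mb limit, in stretches that count as interior themselves, the median was 1.21 between 5 and 7 Mb. It was also 1.21 between 7 and 10 Mb, and in both stretches 7 of 7 lists were above 1.

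The chromosome starts had another profile, in which the lists differed close to the end and were all sparse just beyond the limit. Between 0.25 and 0.5 Mb from the start the ratio was 1.42, 2.08 and 1.29 in sham rats 1 to 3 and 2.77 in stimulated rat 1, but 0.891, 0.601 and 0.930 in stimulated rats 2 to 4. Stimulated rat 3 had 3 entries in that stretch. Few loci weighed heavily there. In stimulated rat 1, 27 of its 52 entries lay in 1 bin of 100 kb on chromosome 19. On chromosome 12, the bins from 300001 to 400000 and from 400001 to 500000 held 10 and 10 of 84 entries in sham rat 1. They held 8 and 10 of 53 in sham rat 2, and 2 and 4 of 29 in sham rat 3. From 3 to 5 Mb the ratio was below 1 in all 7 lists, at 0.653 to 0.888. Just inside the limit, from 2.5 to 3 Mb, the 7 lists together held 817 entries at starts and 972 at far ends, and just outside, from 3 to 3.5 Mb, they held 729 and 976.

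**Figure D2:**
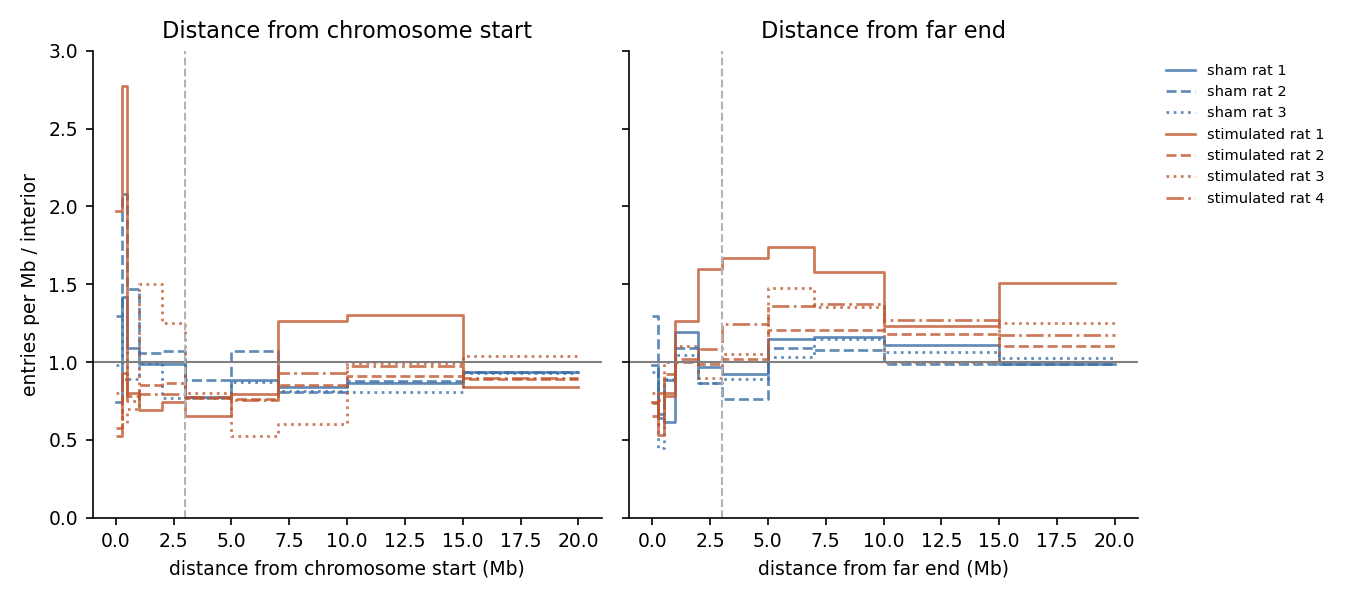
Entries per Mb relative to the interior (y axis) against distance in Mb from the chromosome start (left) and from the far end (right), summed over 20 autosomes, with 1 line per rat and the 3 Mb limit dashed. All lists are below 1 between 0.25 and 0.5 Mb from the far end and above 1 between 5 and 10 Mb from it, while starts are below 1 in all lists from 3 to 5 Mb.

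Single ends differed far more than the averages did. A denser end than the interior in at least 6 of 7 lists was found for 3 of 20 starts and 3 of 20 far ends, and 14.2% of all 909 windows of 3 Mb on the autosomes met this rule. A sparser end was found for 9 of 20 starts and 5 of 20 far ends, where 25.0% of all windows did so. The count of sparse starts, 9 of 20, stood above the share of all windows, and this excess was not tested. The mean log2 ratio ranged from −2.59 to 1.12 over the starts and from −0.98 to 0.69 over the far ends. Over 869 interior windows it ranged from −5.50 to 2.92. The SD over windows was 0.85 at starts, 0.46 at far ends and 1.10 in the interior. Some interior windows held no entry in any list, since a stretch of 65211 kb on chromosome 4 had no summit. The interior range and SD include such windows, so they do not show that windows with peaks vary more there.

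The start of chromosome 2 was the densest end and the window ranked 3 of 909. It held 107, 66 and 41 entries in sham rats 1 to 3, where 33.7, 14.6 and 11.9 were expected. In stimulated rats 1 to 4 it held 12, 164, 2 and 91 entries, where 4.98, 105, 2.29 and 57.4 were expected. The mean log2 ratio was 1.12 ± 0.79 (SD, n = 7), and 6 of 7 lists were above their interior.

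The far end of chromosome 19 came next, with 60, 28 and 22 entries in sham rats and 18, 199, 5 and 105 in stimulated rats 1 to 4. Its mean log2 ratio was 0.69 ± 0.46 (SD, n = 7), and stimulated rat 1 was the list below its interior. In the interior of chromosome 19, 127 of 669 bins of 100 kb had no entry in any list. The expected number counts their length, which raises the ratios of the ends of this chromosome. Its share of the autosomal entries hardly varied, at 0.163% to 0.200% over the 7 lists. The start of chromosome 16 was the 1 end denser than its interior in 7 of 7 lists, with a mean log2 ratio of 0.42 ± 0.30 (SD, n = 7). The starts of chromosomes 7 and 6 and the far end of chromosome 17 had mean log2 ratios of 0.51 ± 0.68, 0.50 ± 0.47 and 0.43 ± 0.61 (SD, n = 7), and were above the interior in 5, 6 and 6 lists.

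The start of chromosome 1 was the sparsest end. It held 7, 3 and 1 entries in sham rats and 6, 15, 0 and 8 in stimulated rats 1 to 4, where 118 were expected in stimulated rat 2. The starts of chromosomes 20 and 13 and the far end of chromosome 10 followed, with mean log2 ratios of −1.72 ± 0.63, −1.23 ± 0.65 and −0.98 ± 0.48 (SD, n = 7), and all 4 of these ends were sparser than the interior in 7 of 7 lists.

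Some starts held long stretches without any peak. Of the 100 kb bins, 15.5% had no entry in any list at starts, 2.17% at far ends and 8.40% in the interior. In the first 3 Mb, 19 of 30 bins were empty on chromosome 1, 17 on chromosome 20, 15 on chromosome 12 and 11 on chromosome 13. The start of chromosome 12 was not sparse (mean log2 ratio 0.22 ± 0.64; SD, n = 7). The sparse starts of chromosomes 14 and 17 had 6 empty bins each, and those of chromosomes 8, 9, 10 and 18 had 2 to 3. The longest stretch without a summit near any start was 1916 kb on chromosome 1. Some interiors held longer ones, up to 65211 kb on chromosome 4, where 29.3% of interior bins were empty. Expected numbers count this length, so ratios of single ends on such chromosomes are higher than they would be over occupied length. Whether these stretches are unassembled or unmappable sequence was not tested. When only bins with an entry in some list were counted as length, the mean log2 ratio was 0.12 ± 0.24 at starts and −0.11 ± 0.13 at far ends (SD, n = 7).

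**Figure D3:**
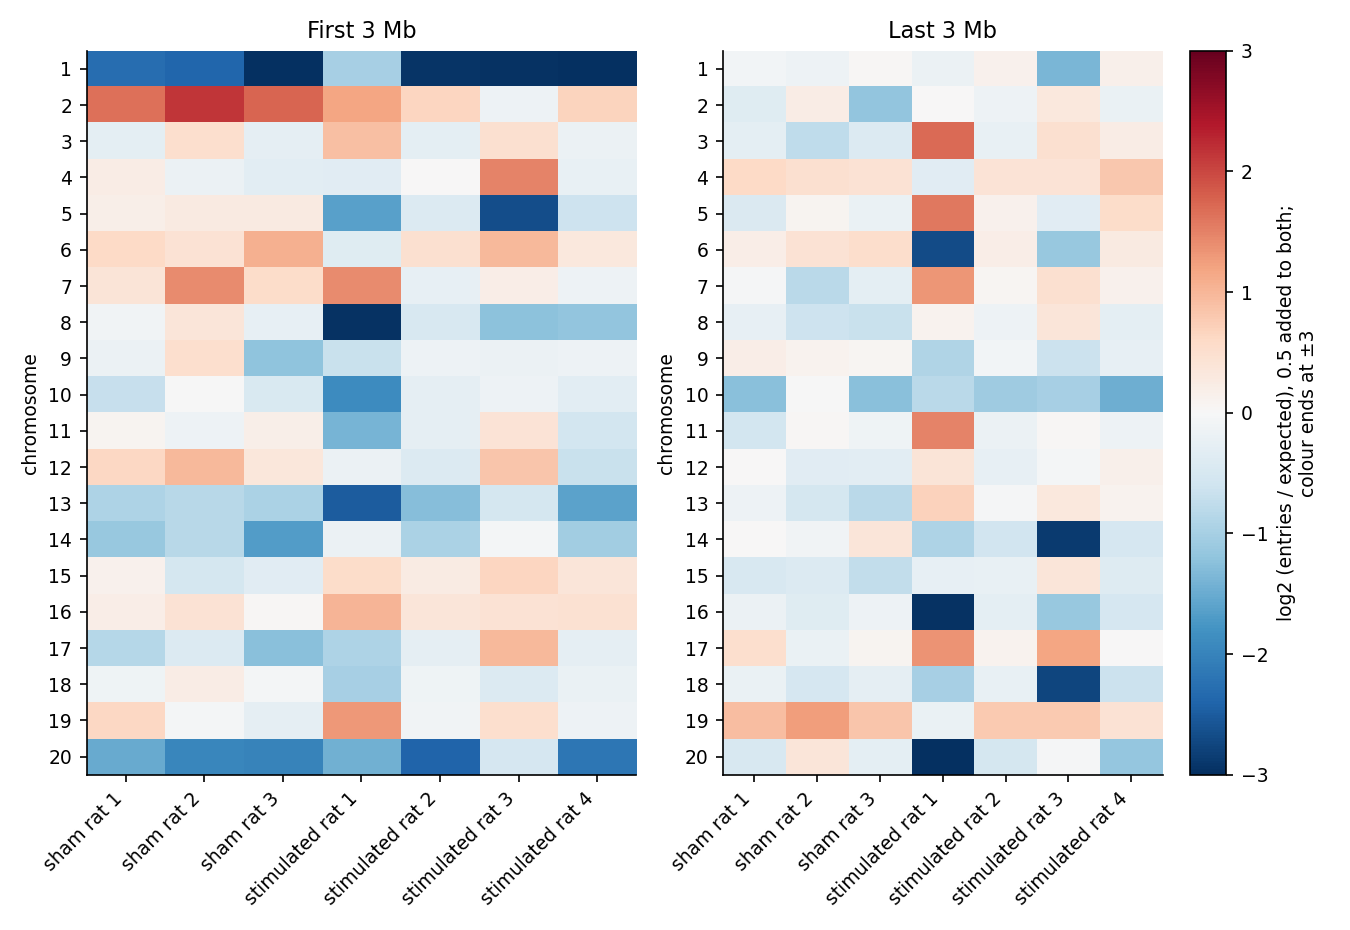
Log2 ratio of entries to the number expected from the interior (colour, 0.5 added to both, colours end at ±3) for each autosome (rows) and rat (columns), with the first 3 Mb on the left and the last 3 Mb on the right. The starts of chromosomes 1 and 20 are blue in every list and the start of chromosome 2 is red in 6 of 7.

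By the textbook shape of the chromosomes, starts of the 8 telocentric autosomes had a median ratio of 1.11 over the lists (0.852 to 1.86). Those of the 7 metacentric ones had 0.834 (0.646 to 1.302) and those of the 5 subtelocentric ones 0.793 (0.524 to 1.05). The ranges overlap, and the first set includes the start of chromosome 2. At far ends the medians were 0.955, 0.981 and 0.931 for the same sets. The gene-rich chromosomes 10, 12, 19 and 20 had median ratios of 0.986 at starts and 0.945 at far ends.

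Shares of single ends separated sham from stimulated lists about as often as any other window did. The share of autosomal entries did not overlap between the groups at 12 of 40 ends, where 26.8% of all windows of 3 Mb were of this kind. It was higher in every sham list at 4 starts and 3 far ends (13.3% of all windows), and higher in every stimulated list at 0 starts and 5 far ends (13.5% of all windows). In equal lists 4 of 40 ends separated the groups, with 8.03% of all windows, and 2 of these, the far ends of chromosomes 12 and 13, were among the 12. Among entries with a −log10 q of 3 or more, 4 of 40 ends did so, with 15.1% of all windows, and all 4 were among the 12.

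The start of chromosome 2 had the widest gap between groups. It held 0.335%, 0.472% and 0.339% of the autosomal entries of sham rats 1 to 3 and 0.128%, 0.151%, 0.0744% and 0.141% of those of stimulated rats 1 to 4. Group means were 0.382% ± 0.078 (SD, 3 sham lists) and 0.124% ± 0.034 (SD, 4 stimulated lists). The lowest sham list was thus 0.184 percentage points above the highest stimulated list, and the groups also stayed apart among entries with a −log10 q of at least 3. In equal lists the groups overlapped, with 30, 27 and 15 entries in sham and 6, 19, 2 and 12 in stimulated rats.

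Sham lists were also higher at the start of chromosome 5, with 0.115% ± 0.00088 of their entries (SD, n = 3) against 0.046% ± 0.037 in stimulated lists (SD, n = 4), and at the far end of chromosome 14, with 0.123% ± 0.023 against 0.046% ± 0.034. Stimulated rat 3 had 0 entries at both of these ends, where 2.66 and 3.13 were expected. Shares were likewise higher in sham lists at the far end of chromosome 9 and at the starts of chromosomes 18 and 8. Stimulated lists were higher at the far end of chromosome 12, with 0.114%, 0.112% and 0.177% in stimulated rats 2 to 4 and 0.320% in stimulated rat 1, against 0.0786% to 0.0971% in sham rats. At the far end of chromosome 3 stimulated rat 1 had 0.394% and the other stimulated lists 0.0947% to 0.149%, against 0.0572% to 0.0846% in sham rats. The far ends of chromosomes 8 and 13 showed the same order.

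Median peak strength near the ends was equal or close to that of the interior. The median of the authors' fold enrichment was the same at starts, at far ends and in the interior in each sham list, namely 4.64, 4.93 and 5.02 in sham rats 1 to 3, and also in stimulated rat 4, at 4.73. In stimulated rats 2 and 3 it was 5.22 and 4.88 at starts, against 5.05 and 4.67 in the interior. At far ends it was 3.69 against 4.07 in stimulated rat 1, 5.22 against 5.05 in stimulated rat 2 and 4.33 against 4.67 in stimulated rat 3. The mean difference in median log2 fold was −0.03 ± 0.07 at far ends and 0.02 ± 0.03 at starts (SD, n = 7; exact sign-flip permutation test, two-sided p = 0.500 and adjusted p = 0.844 for each). Medians tied with the interior in 4 lists at far ends and 5 at starts, so this exact test could not go below p = 0.250 and p = 0.500 and does not bear on equal strength. The mean log2 fold, compared after seeing the data, differed from the interior by −0.02 ± 0.03 at far ends (SD, n = 7; exact sign-flip permutation test, two-sided p = 0.0469). The share of entries whose −log10 q reached 3 was larger at starts than in the interior in 7 of 7 lists, most clearly in stimulated rat 1, at 28.6% against 17.1%, and least in stimulated rat 4, at 66.8% against 66.5%.

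Starts held more peaks over high local background. Background is the denominator of the fold enrichment, recovered from pileup and fold, and was called high above 3 times the median of the list. The share of such entries at starts was 9.66%, 11.4% and 16.5% in sham rats 1 to 3, against 6.54%, 9.48% and 9.26% in their interiors. In stimulated rats 1 to 4 it was 15.0%, 4.92%, 8.70% and 6.51%, against 4.97%, 1.42%, 4.02% and 2.07%. Starts were thus above the interior in 7 of 7 lists, although the 95% Clopper-Pearson intervals overlapped in sham rat 2 and stimulated rat 3. At far ends the share was 0.642% to 8.18% and lay on both sides of the interior.

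These entries sat mainly at 3 starts. Of the 369 high-background entries near starts, 286 (77.5%) lay on chromosomes 2, 7 and 12, with 118, 84 and 84. Without these chromosomes the share at starts was below the interior in 6 of 7 lists, and in stimulated rat 1 it was 7.36% against 5.26%. The density of starts without them was −0.22 ± 0.21 on the log2 scale (SD, n = 7), a description with no test, since they were picked by their values.

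**Figure D4:**
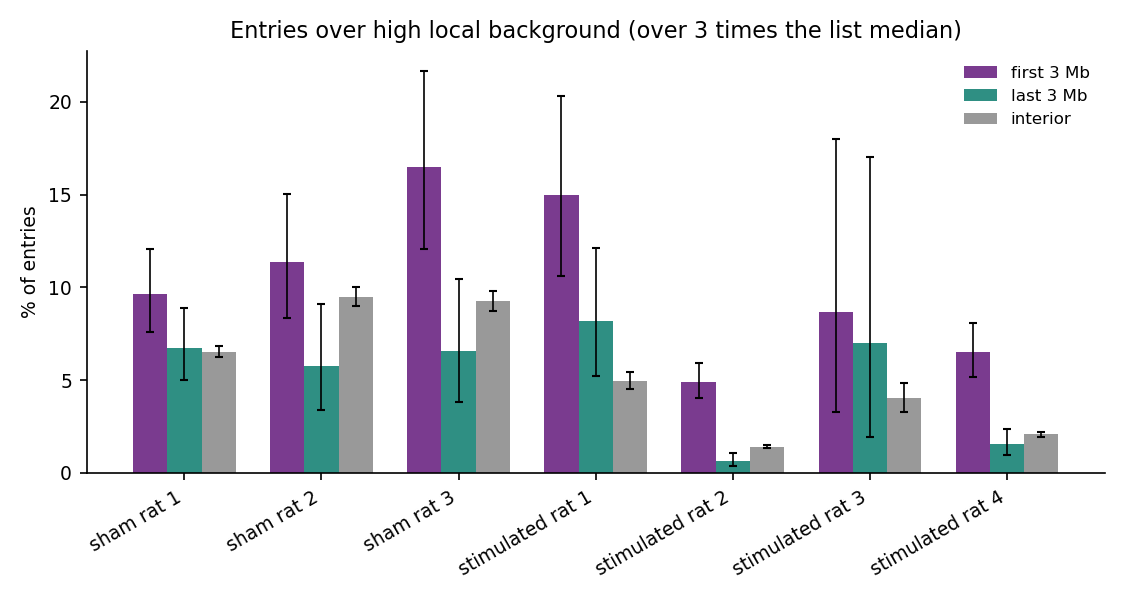
Percent of entries whose local background exceeds 3 times the median of their list (y axis, from 0) for each rat in the first 3 Mb, the last 3 Mb and the interior, with 95% Clopper-Pearson intervals that cover counting error only. The bar of the first 3 Mb is the highest in every rat, at 4.92% to 16.5%.

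Peaks near starts were met by a peak of another rat more often than interior peaks. Entries that repeat an interval were merged first, and 1 shared bp counted as a match. The share met at starts was 61.5%, 67.2% and 77.5% in sham rats 1 to 3, against 59.9%, 66.8% and 71.1% in the interior. It was 11.4%, 40.3%, 13.2% and 56.9% in stimulated rats 1 to 4, against 4.25%, 38.2%, 12.7% and 52.6%. The difference was 3.22 ± 2.75 percentage points and positive in 7 of 7 lists (SD, n = 7; exact sign-flip permutation test, two-sided p = 0.0156, adjusted p = 0.141).

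The higher recurrence was not seen without chromosomes 2, 7 and 12, where the difference was −2.05 ± 1.65 percentage points (SD, n = 7) and negative in 6 of 7 lists. These chromosomes hold many recurrent start regions, so leaving them out had to lower the value, and no test is given. Without the high-background entries it was 0.79 ± 2.55 points (SD, n = 7; exact sign-flip permutation test, two-sided p = 0.422). Even placement at the density of each end would give 2.01% to 3.37% at starts and 1.82% to 3.18% in the interior. Relative to that expectation, recurrence was lower at starts than in the interior in 5 of 7 lists. The gap was widest in sham rat 2, at 20.3 against 21.8 times, and smallest in stimulated rat 4, at 21.56 against 21.61 times. It was higher at starts in stimulated rat 1, at 3.39 against 1.33 times, and in stimulated rat 3, at 4.34 against 4.13 times. At far ends the difference was −0.34 ± 2.49 points (SD, n = 7; exact sign-flip permutation test, two-sided p = 0.703, adjusted p = 0.844), with 6 of 7 lists below the interior and stimulated rat 3 above it by 4.84 points.

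**Figure D5:**
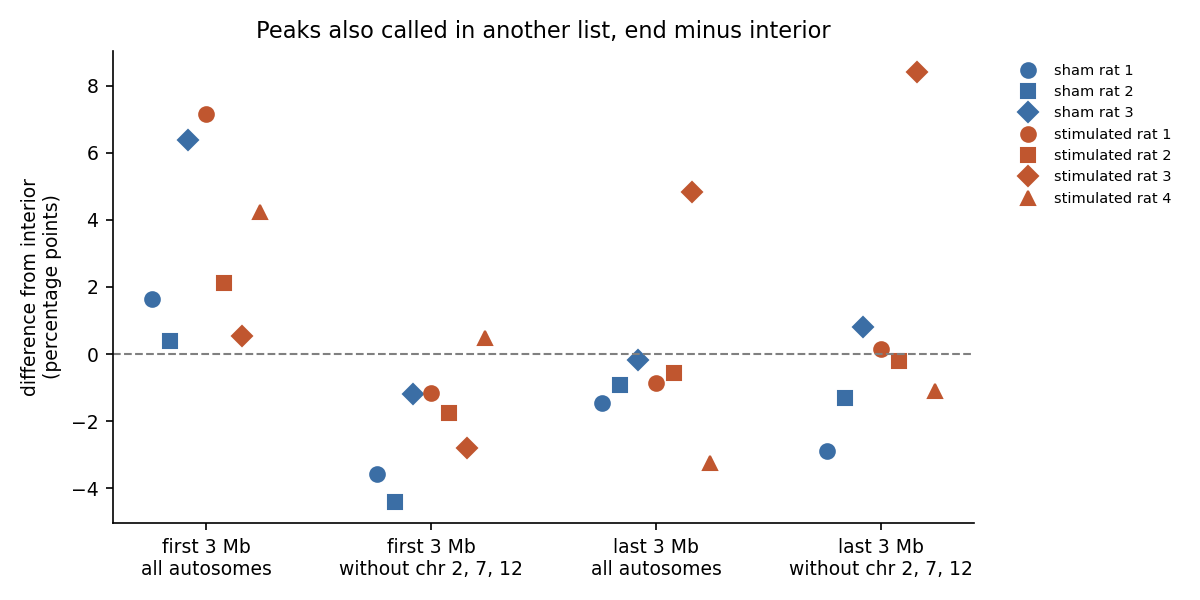
Percent of peaks met by a peak of another list, end minus interior, in percentage points (y axis, dashed line at 0), with 1 point per rat, over all autosomes and without chromosomes 2, 7 and 12. All 7 points are above 0 at starts over all autosomes, and 6 of 7 are below 0 there without the 3 chromosomes.

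When overlapping peaks of all lists were merged, the ends held 3327 regions at starts and 3874 at far ends, against 167000 in the interior. A peak in at least 4 rats was present in 135 regions (4.06%) at starts, 72 (1.86%) at far ends and 3998 (2.39%) in the interior. Of the 135, the start of chromosome 2 held 34, that of chromosome 7 held 20 and that of chromosome 12 held 16. Among these 135 regions, 31.1% lay over high local background, compared with 12.5% at far ends and 17.9% in the interior. All 3 sham rats had a peak in 61 regions (1.83%) at starts, 26 (0.671%) at far ends and 1485 (0.889%) in the interior. Stimulated rat 2, whose list was the longest, shared 59, 25 and 1416 of these.

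All 7 rats shared a peak at 2 member regions, both with tall pileups over high background. Both lay at starts (0.0601% of 3327 regions), with 0 at far ends and 10 (0.00599%) in the interior. A region of 301 bp near the start of chromosome 12 (1488487 to 1488787) had fold enrichments of 2.69, 3.59 and 2.47 in sham rats and 2.33, 3.27, 3.57 and 2.57 in stimulated rats 1 to 4, at a background 44.2 times the list median. A region of 531 bp at the first peak of chromosome 3 (43082 to 43612) had fold enrichments of 1.50 to 3.27, at a background 111 times the list median.

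The other named regions were called in 5 or 6 rats, some of them over high background. One near the far end of chromosome 10 (109391999 to 109392293) was present in 6, with 7.61-, 5.29- and 5.14-fold enrichment in sham rats, 6.14-, 3.54- and 5.28-fold in stimulated rats 2 to 4 and no peak in stimulated rat 1. Its background was 2.64 times the list median. A pair of regions at the start of chromosome 2 (388329 to 388531 and 491807 to 491991) was called in 5 rats at 6.49- to 10.0-fold enrichment, with a background of 1.07 and 1.00 times the median. The region with the highest fold among those named lay near the far end of chromosome 17 (91100378 to 91100623), at 6.44- to 11.9-fold in 5 rats and 9.74 times the median background. A second pair, near the start of chromosome 7 (2127929 to 2128168 and 2150388 to 2150588), was called in the same 5 rats, over a background of 7.85 and 6.67 times the median.

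Most member regions were called in 1 group only, since 72.0% of those at starts and 74.8% at far ends came from 1 rat. The interior was similar, with 73.6% of its regions from 1 rat. Shared by the 3 sham lists and missing from every stimulated list were 2 regions at starts and 1 at far ends, against 45 (0.0269%) in the interior. These 3 were on chromosome 11 (93020398 to 93020624), on chromosome 18 (2294848 to 2295052) and on chromosome 5 (668645 to 668873), with pileups of 4 to 9 tags and fold enrichments of 4.10 to 8.21. No member region was called in all 4 stimulated rats and no sham rat, and in the interior 6 of 167000 (0.00359%) were. That share is too low for the absence at the ends to be informative. Calls in 3 stimulated rats and no sham rat were present at 2 regions (0.0601%) at starts and 5 (0.129%) at far ends, against 81 (0.0485%) in the interior with at least 3. The strongest of these lay on chromosome 4 (1087527 to 1087819), with 6.79-, 4.88- and 4.49-fold enrichment in stimulated rats 2 to 4 and pileups of 10, 6 and 8 tags. The next were on chromosome 3 (181916638 to 181916980), chromosome 8 (131363226 to 131363535) and chromosome 7 (1006911 to 1007224). Sham libraries were all shallower, so a missing sham peak at such pileups was not separable from depth.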

How the data were processed

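The peak lists of 7 rats were used, grouped by the treatment label. Trimming with cutadapt 1.7.1, and Bowtie 1.0.0, are named in the submitters' processing notes, as is MACS2 2.1.0.20141030. Per the file headers, peaks were called per rat against the input of the group, with 50 bp tags extended to 150 bp, 1 tag kept per position and a q threshold of 0.1. Filtered tags ranged from 2436208 to 17960510 per list. The deposited lists give pileup as a signal in tags, the −log10 p and −log10 q, and fold enrichment as a ratio to local background. No source used here names the genome build, so genes were not assigned.

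Entries per end were divided by the number expected from the interior of the same chromosome, summed over 20 autosomes. Ratios were tested over rats by sign flips (128 patterns) and groups by label permutation (35 assignments, p as 2 times the smaller tail). Single ends had 0.5 added to both numbers. Named ends were the 6 densest, the 4 sparsest and up to 10 with separate groups, by gap. Named regions were up to 8 by number of rats and lowest fold, and up to 4 of each kind restricted to a group. Background was recovered from pileup and fold. Intervals are 95% Clopper-Pearson and cover counting error only. Alternatives changed the end width, strength thresholds, list length, reference density, overlap and rats used. The scripts (Python 3.11.15, numpy 2.4.6, pandas 2.3.3, scipy 1.17.1) were tested on simulated data. Members, lists and tests were chosen with earlier results of these data known.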

Additional observations from a re-analysis of the deposited data

Results flagged for a closer look

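In 4 of 29 measures, stimulated rat 1 lay far from the remaining stimulated rats, where chance gives about 1 in 20 for a single measure. The measures overlap, as the density ratio and the share at far ends count the same entries. An excess over chance was therefore not tested. Its log2 density ratio at far ends was 0.26 against −0.07 in the nearest other stimulated rat, and far ends held 2.87% of its autosomal entries against 2.18%. Its log2 ratio was −0.996 at the start of chromosome 1 against −2.94, and 1.013 at the start of chromosome 16 against 0.45.

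At 2 named ends every sham list was denser and every stimulated list sparser than its interior, and this difference was not tested. Groups lay on opposite sides of the interior at 3 of 40 ends and in 7.48% of all 909 windows of 3 Mb, so such ends were about as frequent as other windows. At the start of chromosome 5 the mean log2 ratio was −1.33 in stimulated and 0.24 in sham rats. The ratios of stimulated rats 1 to 4 there were −1.63, −0.41, −2.66 and −0.62, from 3, 89, 0 and 45 entries. That of stimulated rat 3 was set by the 0.5 added to both numbers. At the far end of chromosome 9 the means were −0.47 in stimulated and 0.12 in sham rats. The remaining end, the far end of chromosome 7, went the other way. Log2 ratios there were −0.81 to −0.03 in sham and 0.05 to 1.33 in stimulated rats.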

How the results depend on the processing

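Densities and group differences are log2 values and recurrence is in percentage points, all against the interior. With ends of 1 Mb, density was −0.33 at far ends and 0.018 at starts, the group difference at far ends −0.0337, strength at starts −0.0235, and recurrence −5.29 at far ends and 3.97 at starts. With 2 Mb, density was −0.0705 and 0.0153, the group difference at far ends −0.0261 and recurrence at far ends 0.43. With 5 Mb, density at far ends was 0.00754, far ends minus starts 0.17, and recurrence 0.33 at far ends and 0.94 at starts. At a −log10 q of at least 3, density at starts was 0.15, the group differences −0.0121 (far ends) and 0.0231 (starts), recurrence at far ends 1.20, and 4 ends separated the groups. At a fold of at least 4, density at far ends was −0.0864, its group difference −0.0265, and recurrence 0.17 and 1.95. Equal lists gave −0.25 at far ends, 0.48 at starts, −0.74 for their difference, and 4 separated ends. Far ends minus starts was 0.0039 for distinct intervals. Density at starts was 0.0262 when counted from the first peak. The pooled interior gave 0.0184 at far ends and 0.0223 at starts. Without high-background peaks, far ends minus starts was 0.0776 and recurrence at starts 0.79. With 50% of both intervals shared, recurrence at far ends was −1.31.

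Other alternatives were chosen after seeing the data. Length holding a peak gave 0.12 at starts. The median over chromosomes gave −0.14 at far ends and 0.0244 for far ends minus starts, which was 0.0408 without chromosomes 1 and 2. Equal lists without high-background peaks gave −0.27, 0.34, −0.61 and a group difference at far ends of −0.14. Without chromosomes 2, 7 and 12, density at starts was −0.22, far ends minus starts 0.17, the group difference at starts 0.059, and recurrence 0.55 at far ends and −2.05 at starts. Equal lists without these chromosomes gave −0.24 at far ends and a group difference at starts of 0.30. The mean log2 fold gave −0.0237 for strength at far ends, which then passed 0.05 (exact permutation test, p = 0.0469). Causes of these shifts were not tested.

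Leaving out 1 rat gave −0.0815 to −0.0139 at far ends, −0.0851 to 0.0268 at starts and −0.0529 to 0.0559 for their difference. Group differences were 0.0127 to 0.125 at far ends, lowest without stimulated rat 1, and −0.284 to −0.0651 at starts, smallest in size without sham rat 2. Recurrence was −1.20 to 0.13 at far ends and 2.41 to 4.48 at starts. Without sham rat 1 recurrence at starts no longer passed 0.05 (exact permutation test, p = 0.0938), and without stimulated rat 3 that at far ends did (exact permutation test, p = 0.0312). Stimulated rat 3 was the only list above its interior at far ends, so leaving it out gave the smallest p that 6 rats allow. No paired analysis was possible because the labels give each rat its own number and none occurs in both groups. Of 177 recomputed values that have a p, 119 kept their direction and side of the threshold and 38 changed sign. Peaks missing from shallow sham lists limit every comparison of single regions.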

Other observations

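Stimulated rat 1 held 27 entries in 1 bin of 100 kb near the start of chromosome 19 (300001 to 400000), where sham rats had 0 and stimulated rats 2, 3 and 4 had 1, 0 and 1. Its 10 fullest bins near starts held 34.4% of its entries there, against 5.85% to 24.6% in the other lists.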
